A study of Homo sapiens with 20 samples.

Results

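The genes described here are 8 transcription factors that mark the progenitor cells of the pancreas, *PDX1*, *NKX6-1*, *SOX9*, *MNX1*, *ONECUT1*, *GATA4*, *GATA6* and *PTF1A*. They were chosen by name, with earlier results of these data known. All 8 were found by Ensembl identifier among the 60623 genes listed for pancreatic progenitors (PPs) and the 60624 listed for human islet-like organoids (hILOs). The question was how the loss of *ALKBH5*, which encodes an enzyme that removes the methyl mark m6A from RNA, goes with the level of these mRNAs and with their loss once transcription is blocked. In all, 20 RNA-seq libraries were analysed, all made from the human embryonic stem cell line MEL1 (named MEL1 INS GFP/W in the methods of the study, a reporter line with GFP at the insulin locus) or its *ALKBH5* knockout (A5-KO). The PPs came from WT and A5-KO cells treated with actinomycin D (Act D, 1 μg/ml), a drug that stops transcription, for 0, 1, 2 or 3 h, with 2 libraries for each genotype and time. The hILOs, a later stage that holds insulin-producing cells, had 2 WT and 2 A5-KO libraries and no Act D. Per the methods of the study, the knockout was made with CRISPR-Cpf1 guides against the first exon of *ALKBH5* followed by picking of colonies, so what sets A5-KO apart may include differences between colonies, which cannot be told apart here from the loss of the gene.

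The positions of the 8 genes on GRCh38 were taken from the GENCODE annotation. *PDX1* lies on chr13:27920000-27926313 (plus strand), *NKX6-1* on chr4:84491985-84499292 (minus), *SOX9* on chr17:72121020-72126416 (plus), *MNX1* on chr7:156994051-157010663 (minus), *ONECUT1* on chr15:52755053-52791078 (minus), *GATA4* on chr8:11676959-11760002 (plus), *GATA6* on chr18:22169589-22202528 (plus) and *PTF1A* on chr10:23192312-23194245 (plus). *GATA6* was the only one whose exons overlap those of another gene. It shares 94 exon bases with the antisense gene *GATA6-AS1* and 321 with a second antisense gene, so reads from these stretches could not be assigned without strand. *GATA6-AS1* had 6.85 to 14.5 CPM in the 16 PP libraries.

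These factors act together during pancreas formation. *PDX1* is needed for the organ to form. *GATA4* and *GATA6* encode zinc finger factors of the early endoderm and act upstream of *PDX1*. *ONECUT1* (also called HNF6) acts early in the pancreatic endoderm and helps to switch on genes of the endocrine lineage. *SOX9* keeps the progenitor pool, *MNX1* takes part in the formation of the dorsal bud, *NKX6-1* marks progenitors that can become beta cells, and *PTF1A* works in multipotent progenitors and later in acinar cells. Messenger RNAs of developmental regulators are often short-lived. The m6A mark can shorten the life of an mRNA through the reader proteins that bind it, and AU-rich stretches in the 3′ UTR can do so as well.

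The mRNA sequences of the canonical transcripts were searched, on the sense strand only, for 2 short motifs that bear on mRNA decay. The letters ATTTA, the core of AU-rich elements, were present in the 3′ UTR of all 8 mRNAs, from 2 copies in *MNX1* and *GATA6* to 11 in *ONECUT1*. Per kb of 3′ UTR this came to 1.17 in *GATA6*, 1.86 in *PDX1*, 1.96 in *GATA4*, 3.0 in *MNX1*, 3.94 in *SOX9*, 4.4 in *ONECUT1*, 4.6 in *NKX6-1* and 17.7 in *PTF1A*, beside a median of 1.82 over 11836 transcripts. In the last 500 bases of the 3′ UTR, 6 of the 7 members with a UTR of that length held ATTTA (not *GATA6*), as did 64.7% of 9388 transcripts. The number of copies did not set the order of loss described below. After 3 h of Act D, A5-KO libraries kept 85.5% and 78.5% of the 0 h mean of *ONECUT1*, but 9.71% and 8.18% for *GATA6*. No link between motif and loss was tested. One window is printed for each gene but *GATA4*, because loss after Act D is followed below, with ATTTA in capitals, in mRNA sense and all in the last exon.
PDX1, chr13:27925895-27925924, plus strand: tcggaactttctATTTAggatgtggacgta
NKX6-1, chr4:84492341-84492370, minus strand: tcgtttgttgctATTTAttagtgATTTAaa
SOX9, chr17:72124527-72124556, plus strand: ttccttaaagacATTTAagctaaaggcaac
MNX1, chr7:157004938-157004967, minus strand: tttgtatattgtATTTAtatataaaaagaa
ONECUT1, chr15:52755212-52755241, minus strand: gctacataatgtATTTAtaATTTAggaggg
GATA6, chr18:22201510-22201539, plus strand: catttgcataagATTTAacagcatttttta
PTF1A, chr10:23194014-23194043, plus strand: caactgtttattATTTAtctATTTAttatc
The letters GGACT, the most common core of the motif at which m6A is placed, occurred between 1 and 8 times per mRNA, most often in *NKX6-1*. Within 100 bases of the stop codon, where m6A is often found, GGACT was present in *GATA4* alone among the 8, and in 22.6% of 11836 transcripts. The copies nearest to the stop codon lie in the 3′ UTR of *SOX9* and *GATA6* and in the coding sequence of *PDX1* and *MNX1*. They are shown because the enzyme that A5-KO cells lack acts on this mark, with GGACT in capitals.
SOX9, chr17:72124661-72124690, plus strand: caacgagaaactGGACTttttaaaccctct
GATA6, chr18:22201072-22201101, plus strand: ttccagaagccaGGACTaggacctgggcct
PDX1, chr13:27924512-27924541, plus strand: ggagcctgagcaGGACTgcgccgtgacctc
MNX1, chr7:157005662-157005691, minus strand: acgccgcctgcgGGACTtgagggacagtga
The m6A state of these letters was not measured in the data used here, and a match is no more than a match of letters.

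The depth of the PP libraries, recovered from the CPM (read counts scaled to the library total), was 30516384 to 35206514 reads. TPM (a length-scaled share of the library, used for hILOs) keeps no depth, so the depth there is unknown. *ALKBH5* was at 78.8 and 81.9 TPM in WT hILOs and at 4.16 and 3.42 TPM in A5-KO hILOs. In PPs before Act D it was at 149 and 172 CPM in WT, against 19.1 and 18.8 CPM in A5-KO. The members are themselves markers of the PP stage, so their levels are no separate check of the label. All but *PTF1A*, so 7 of the 8, had a mean of at least 1 CPM. At 0 h over both genotypes they summed to 947 to 1275 CPM, against 1084 to 1897 CPM for 10 hepatocyte genes. Islet hormone and endocrine genes summed to only 4.80 to 6.61 CPM in these libraries.

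The WT libraries taken late in the Act D course stood apart from the earlier ones. *ALKBH5* in WT was at 133 and 125 CPM at 1 h, 107 and 83.4 CPM at 2 h, and 48.3 and 33.7 CPM at 3 h, while the A5-KO libraries at 1 to 3 h held 7.43 to 11.1 CPM. Loss of mRNA under Act D lowers *ALKBH5* as well. In A5-KO its mean fell to 55.8%, 46.6% and 43.2% of the 0 h mean at 1, 2 and 3 h. To place each library between the genotypes, 40 genes were taken, with the members and *ALKBH5* left out (a check added after the data were seen). They were separated by more than 1 on the log2(CPM + 1) scale between every WT and every A5-KO library at 0 and 1 h. They also varied by less than 1 over all 8 A5-KO libraries, whereas in WT this limit covered the libraries at 0 and 1 h only. On the 22 genes that were higher in A5-KO, with the WT mean as 0% and the A5-KO mean as 100%, WT replicate 1 at 2 h had a median position of 2.41%, WT replicate 2 at 2 h of 10.5%, and the libraries labelled WT at 3 h of 30.3% and 34.1%. On the 18 genes that were lower in A5-KO the same libraries stood at 28.3%, 72.3%, 84.4% and 87.1%, though the loss of mRNA under Act D moves a WT library the same way on these. The 8 A5-KO libraries stood between 88.1% and 129% on both lists. This was partly set by the choice of genes, which limited all A5-KO libraries but not WT after 1 h. On these genes WT replicate 2 at 2 h and the libraries labelled WT at 3 h lay part of the way towards A5-KO, for a cause that was not tested. Sums of marker genes placed all 3 in this way for the intestine list, but not for the hepatocyte and mesenchyme lists. The intestine list summed to 774 and 802 CPM in WT replicates 1 and 2 at 1 h and to 785 and 866 CPM at 2 h. At 3 h it summed to 875 and 952 CPM in WT, against 975 to 1274 CPM in the A5-KO libraries. The hepatocyte list summed to 1178 and 1162 CPM in WT replicates 1 and 2 at 1 h, to 1251 and 1209 CPM at 2 h and to 1478 and 1626 CPM at 3 h, and to 1843 to 2295 CPM in the A5-KO libraries, so that of the WT libraries those at 3 h stood nearest to A5-KO, and replicate 2 at 2 h was the further from it of its pair. For the mesenchyme list the WT sums were 172 and 169 CPM after 2 h of Act D, then 165 and 149 CPM after 3 h. At the same times the A5-KO sums were 197 and 206 CPM, then 247 and 246 CPM. This list was lower at 0 h in both genotypes, at 110 and 118 CPM in WT and 158 and 169 CPM in A5-KO. Results that rest on these 3 libraries are given with and without them where a value without them can be had.

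**Figure D1:**
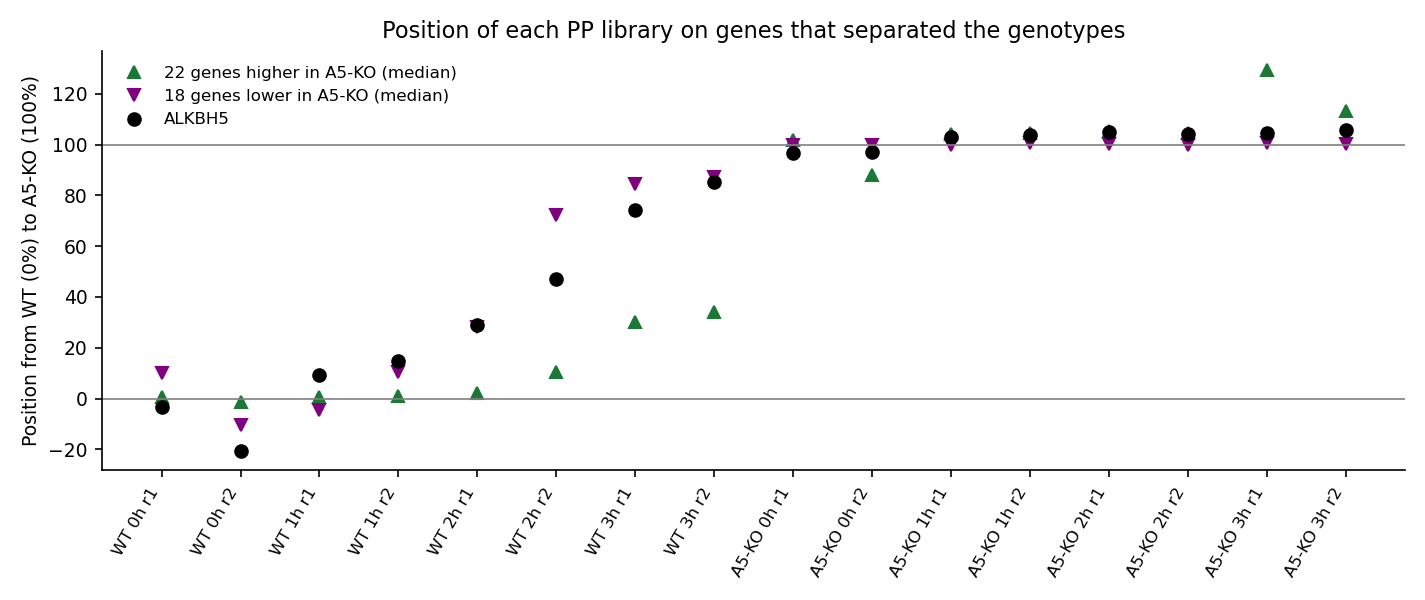
Position of each of the 16 PP libraries (x axis: genotype, hours of Act D and replicate, r1 or r2) between the WT mean at 0 and 1 h (0%) and the A5-KO mean at 0 and 1 h (100%). Triangles are medians over the 22 genes higher and the 18 genes lower in A5-KO, and circles are ALKBH5 alone. WT replicate 2 at 2 h and the libraries labelled WT at 3 h lie between the genotypes on all measures, at 10.5% to 87.1%. Loss of mRNA under Act D moves a WT library the same way on the 18 lower genes and on ALKBH5, where WT replicate 1 at 2 h is at 29.1%.

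Before Act D, 6 of the 8 factors were expressed well in PPs of both genotypes. On the scale of CPM per kb of exon, the WT means were 83.5 for *NKX6-1*, 71.0 for *SOX9*, 68.4 for *PDX1*, 35.3 for *GATA6*, 29.4 for *MNX1*, 17.98 for *GATA4*, 2.93 for *ONECUT1* and 0.0459 for *PTF1A*. The first 3 of these overlapped between libraries, so that their order was not resolved, whereas each of the others lay below its neighbour in both libraries. In A5-KO the order was *SOX9* at 66.0, *NKX6-1* at 62.8 and *PDX1* at 61.6, again overlapping, then *GATA6* at 32.0, *MNX1* at 25.7, *GATA4* at 21.5, *ONECUT1* at 1.03 and *PTF1A* at 0.222.

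**Figure D2:**
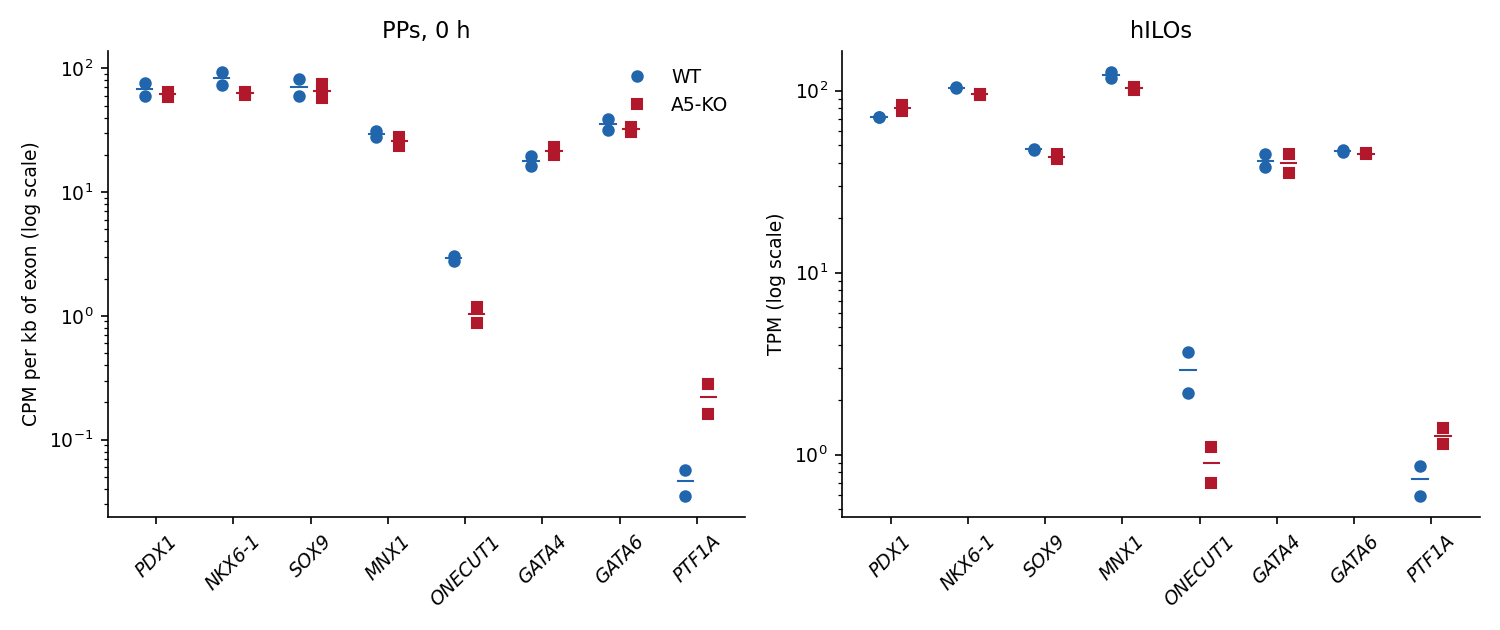
Levels of the 8 factors in PPs before Act D (left, CPM per kb of exon) and in hILOs (right, TPM), both on log axes. Each point is a library, circles WT and squares A5-KO, and the short lines are the means of 2. The points of both genotypes lie close together except for ONECUT1, which was lower in both A5-KO libraries at both stages, and PTF1A, which was near 0 in PPs.

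*ONECUT1* was the member whose level differed between the genotypes before Act D. It was at 18.8 and 17.1 CPM in the WT libraries and at 7.23 and 5.33 CPM in the A5-KO libraries. Both A5-KO libraries lay below both WT libraries, the WT mean being 2.85 times the A5-KO mean. On the log2(CPM + 1) scale the difference was -1.39 (standard error (SE) 0.17, limma adjusted *p* = 0.0019). This was the single call among the 7 members tested at 0 h, where 1.13% of 13911 genes were called lower and 1.57% higher. *PTF1A* was under the limit on low values and was not tested.

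The other 6 did not pass the test at 0 h. *PDX1* was at 199.9 and 156 CPM in WT, against 168 and 153 CPM in A5-KO. *SOX9* was at 322 and 237 CPM in WT, against 292 and 227 CPM in A5-KO. For both genes the libraries of the genotypes overlapped. Replicate 1 was the higher in both genotypes, and within each replicate number A5-KO was the lower, though the numbers are not known to be pairs. *NKX6-1* was at 367 and 289 CPM in WT, against 253 and 241 CPM in A5-KO. Here the genotypes did not overlap (20.8% of 13620 genes were lower in A5-KO in this sense), but the log2 difference of -0.40 (SE 0.10) had a limma adjusted *p* of 0.067. *GATA4* was at 87.4 and 72.4 CPM in WT, against 102 and 88.6 CPM in A5-KO, a log2 difference of 0.25 (limma adjusted *p* = 0.25). *MNX1* (131 and 116 CPM in WT, against 99.9 and 117 CPM in A5-KO) and *GATA6* (148 and 119.8 CPM in WT, against 128 and 116 CPM in A5-KO) had log2 differences of -0.19 and -0.13.

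*PTF1A* was barely detected in PPs. It had 2 and 3 reads in the WT libraries and 15 and 9 reads in the A5-KO libraries at 0 h, or 0.0574, 0.0930, 0.464 and 0.264 CPM. Under Act D it had 0 reads in 3 of the 6 WT libraries and in 5 of the 6 A5-KO libraries, which allows a level of up to 0.0852 to 0.0983 CPM (3 reads, for counting error only). In A5-KO both libraries at 0 h lay above this limit and all 4 at 2 and 3 h had 0 reads, a difference that was not tested. In WT the 0 h libraries held no more than 3 reads, so no change over the Act D course was detectable there at this depth.

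At 0 h, markers of hepatocytes and mesenchyme also differed between the genotypes, where 1.57% of all genes were called higher in A5-KO. Of 10 hepatocyte genes 9 were tested and 5 were higher in A5-KO, and the list summed to 1084 to 1144 CPM in WT, against 1843 to 1897 CPM in A5-KO. Of 8 mesenchyme genes 6 were tested and 3 were higher in A5-KO, with sums of 109.8 to 118 CPM in WT, against 158 to 169 CPM in A5-KO. The 7 intestine genes summed to 785 to 797 CPM in WT, against 975 to 1012 CPM in A5-KO, and none of them was called by limma. The 5 pluripotency genes summed to 124 to 127 CPM in WT, against 236 to 250.2 CPM in A5-KO. Of the 3 tested 1 was called higher, *LIN28A* (log2 difference 1.01). *SOX2* and *DPPA4* went the other way and were not called (log2 differences -0.46 and -0.53, limma adjusted *p* = 0.21 for both). *NANOG* was below 0.1 CPM in both genotypes and *POU5F1* in A5-KO. The part of these cells in the values of the members was not tested. In bulk RNA, fewer cells of a type and less RNA per cell cannot be told apart.

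Other progenitor regulators moved in both directions before Act D. Of 19 such genes on a list without the members, 2 were lower and 2 higher in A5-KO PPs, beside 1.13% and 1.57% of all genes. *ONECUT3*, a relative of *ONECUT1*, had a log2 difference of -1.01 (SE 0.13, limma adjusted *p* = 0.0025). *NKX6-2*, a relative of *NKX6-1*, had one of -0.68 (SE 0.16, limma adjusted *p* = 0.044). *RFX6*, a factor of the endocrine lineage, was higher by 1.38 (SE 0.22, limma adjusted *p* = 0.0092), and *FOXA1*, a pioneer factor of the endoderm, by 1.33 (SE 0.18, limma adjusted *p* = 0.0035). The median difference over the 19 genes was -0.08.

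In hILOs, none of the 7 members tested was called by limma, with 3 lower and 1 higher at an unadjusted *p* under 0.05. Over all 17300 genes, 4.09% were called lower and 2.70% higher in A5-KO, and 3238 lower and 2106 higher genes had an unadjusted *p* under 0.05. *ONECUT1* again stood lowest relative to WT, at 2.18 and 3.65 TPM in WT, against 1.099 and 0.700 TPM in A5-KO. The A5-KO libraries were both below the WT libraries, as 37.1% of genes were, and the WT mean was 3.24 times the A5-KO mean. The log2(TPM + 1) difference of -1.02 (SE 0.28) missed the threshold with a limma adjusted *p* of 0.093. *MNX1*, the member with the highest level at this stage, was at 127 and 117 TPM in WT, against 101 and 105 TPM in A5-KO (log2 difference -0.24, limma adjusted *p* = 0.068). *PDX1*, which in mature beta cells drives insulin transcription, was at 71.8 and 71.2 TPM in WT, against 83.03 and 77.2 TPM in A5-KO (log2 difference 0.16, limma adjusted *p* = 0.15).

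The remaining members differed less in hILOs. *NKX6-1* was at 104 TPM in both WT libraries and at 96.3 and 94.5 TPM in A5-KO. *SOX9* was at 47.1 and 47.8 TPM in WT, against 44.8 and 41.9 TPM in A5-KO. *GATA6* was at 45.9 and 47.1 TPM in WT, against 45.2 and 44.9 TPM in A5-KO. For these genes the A5-KO libraries were both lower, as 37.1% of genes were, with log2 differences between -0.05 and -0.13. The median log2 difference over all genes was -0.063. The listed TPM summed to 924887 and 922614 in the WT libraries, but to 897038 and 887320 in the A5-KO libraries. The part of these totals in differences this small was not tested. *GATA4* overlapped, at 38.0 and 44.5 TPM in WT, against 35.4 and 44.8 TPM in A5-KO. *PTF1A* was at 0.869 and 0.593 TPM in WT, against 1.14 and 1.40 TPM in A5-KO and was not tested. In WT the order of the means was *MNX1* at 122, *NKX6-1* at 104, *PDX1* at 71.5, *SOX9* at 47.5, *GATA6* at 46.5, *GATA4* at 41.3, *ONECUT1* at 2.91 and *PTF1A* at 0.731 TPM, with *SOX9* and *GATA6* overlapping. The islet endocrine list summed to 34550 to 36860 TPM in WT and 26510 to 27720 TPM in A5-KO hILOs, with 5 of its 8 genes lower and 1 higher. The hepatocyte list summed to 20500 to 20850 TPM in WT and 35820 to 36080 TPM in A5-KO, but split by gene, with 4 of 10 higher (*ALB*, *APOA2*, *TTR* and *TF*), 3 lower (*FGA*, *FGB* and *AHSG*) and a median log2 difference of 0.17. Their part in these values was not tested. Of the progenitor regulators outside the members, *HHEX* and *HES1* were lower in A5-KO hILOs, by -1.03 and -0.77 on the log2 scale (limma adjusted *p* = 0.032 and 0.013), and 16 of the 18 tested were not called.

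Within 1 h of Act D, 4 of the 7 mRNAs had fallen to between 21.3% and 39.6% of their starting level in both genotypes. CPM is a share of each library, so that an mRNA lost more slowly than the average rises: the median of 10 stable housekeeping mRNAs was at 105% to 119.8% of its 0 h level in the libraries at 1 to 3 h. *SOX9* lost most, from 279 CPM on average to 59.5 and 71.2 CPM in WT and from 259 CPM to 62.5 and 60.3 CPM in A5-KO, which is 21.3% and 25.5% of the 0 h mean in WT and 24.1% and 23.2% in A5-KO. *PDX1* was at 43.7 and 50.5 CPM in WT, against 53.3 and 51.4 CPM in A5-KO. *GATA6* was at 35.1 and 42.1 CPM in WT, against 42.2 and 43.5 CPM in A5-KO. *NKX6-1* was at 96.2 and 112 CPM in WT, against 97.6 and 97.2 CPM in A5-KO. The loss of these 4 in the first hour was between -1.33 and -2.07 on the log2 scale.

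*MNX1* and *GATA4* fell less in the first hour. *MNX1* was at 61.4 and 66.3 CPM in WT, against 70.2 and 63.0 CPM in A5-KO, and *GATA4* at 40.1 and 47.2 CPM in WT, against 58.1 and 46.3 CPM in A5-KO. Both kept 48.6% to 64.8% of their 0 h mean. *ONECUT1* was at 13.9 and 13.5 CPM in WT, against 5.41 and 5.05 CPM in A5-KO, a change that did not pass the test in either genotype (log2 change -0.36 in WT and -0.21 in A5-KO, limma adjusted *p* = 0.17 and 0.39). In WT 6 of 7 members were called lower at 1 h than at 0 h, as were 15.3% of 13620 genes, with 0.206% called higher. In A5-KO the same 6 were called, beside 16.7% of genes called lower and 1.06% higher.

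The first hour did not separate the genotypes for the members. None of the 7 had a change from 0 to 1 h that differed by genotype in limma's interaction test, where 0% of genes were called lower and 0.235% higher, and none did at an unadjusted *p* under 0.05 or with edgeR or DESeq2. The differences of change ran from -0.01 (SE 0.39) for *GATA4* to 0.31 (SE 0.31) for *NKX6-1*. The SEs reached 0.44 for *PDX1*, which leaves room for differences larger than these SEs in either direction. At 1 h itself *ONECUT1* was the single member called between the genotypes (log2 difference -1.24, SE 0.18, limma adjusted *p* = 0.00043), where 1.15% of genes were called lower and 2.94% higher. Neither result rests on the libraries that lay between the genotypes: without those 3, *ONECUT1* was still the 1 member called at 1 h and none was called for the first hour.

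**Figure D3:**
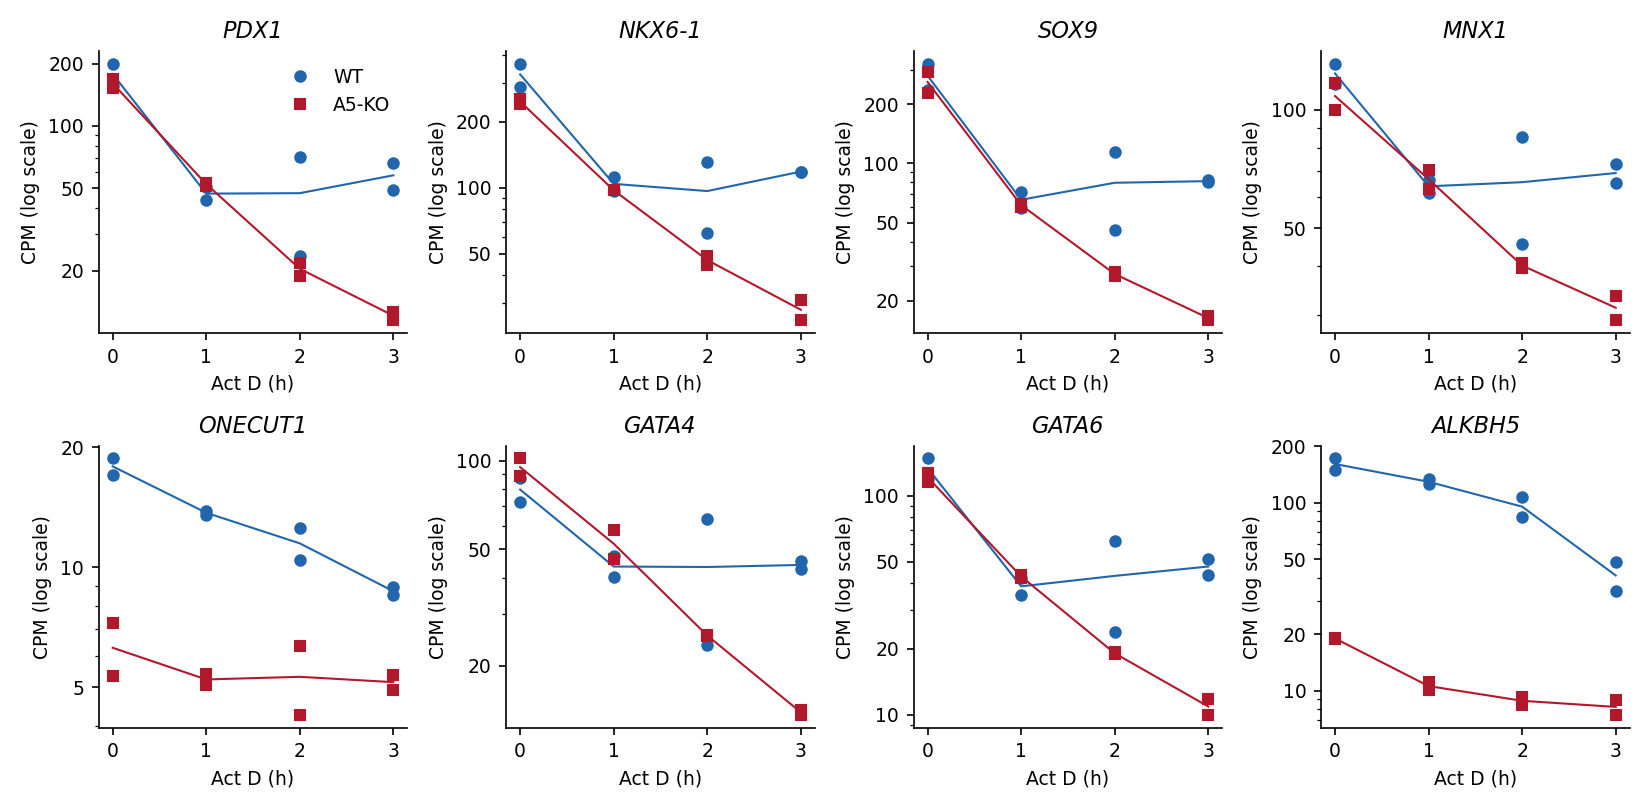
CPM of 7 factors and of ALKBH5 over 0 to 3 h of Act D, on log axes that differ between panels. Points are libraries, circles WT and squares A5-KO, and lines join the means of 2. In A5-KO, 6 of the 7 factors fall at every step; in WT they fall to 1 h, the replicates part at 2 h (PDX1 at 23.6 and 71.1 CPM), and the means at 3 h lie at or above those at 1 h, except for ONECUT1.

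From 1 h onwards the A5-KO libraries kept falling. At 2 h *PDX1* had 18.9 and 21.9 CPM, which fell to 12.7 and 11.5 CPM at 3 h. *SOX9* went from 28.0 and 26.8 CPM to 16.8 and 15.97 CPM over the same hour, the lowest share of the members at 6.46% and 6.16% of its 0 h mean. *NKX6-1* was at 49.1 and 44.6 CPM, then at 30.7 and 25.0 CPM. Replicates lay close together, and each of the 3 h libraries lay below each of the 2 h libraries. *GATA6* went from 18.9 and 19.2 CPM to 11.8 and 9.96 CPM, *GATA4* from 25.3 and 25.4 CPM to 14.2 and 13.6 CPM, and *MNX1* from 40.8 and 39.5 CPM to 33.5 and 29.2 CPM. These 6 were called lower at 3 h than at 1 h in A5-KO, by -1.06 (SE 0.19) for *MNX1* to -2.03 (SE 0.31) for *PDX1* on the log2 scale, beside 15.5% of all genes called lower and 0.837% higher. *ONECUT1* did not fall in A5-KO, at 6.36 and 4.26 CPM at 2 h and 5.37 and 4.93 CPM at 3 h (log2 change from 1 to 3 h of -0.02, SE 0.18). The CPM values of this course come from A5-KO libraries alone, while the SEs and calls come from the fit of all 16 PP libraries. The same count of 6 was called without the 3 WT libraries between the genotypes, and with the A5-KO libraries at 1 and 3 h alone.

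The WT libraries behaved otherwise, and their replicates disagreed at 2 h. *PDX1* was at 23.6 CPM in replicate 1 and 71.1 CPM in replicate 2, *NKX6-1* at 62.2 and 131 CPM, *SOX9* at 45.7 and 114 CPM, and *GATA6* at 23.8 and 62.4 CPM. *GATA4* was at 23.5 and 63.5 CPM, *MNX1* at 45.6 and 85.3 CPM, and *ONECUT1* at 10.4 and 12.6 CPM. Replicate 2, the library between the genotypes on the check above, was the higher for all 7 and lay above both libraries at 1 h for every one but *ONECUT1*. Replicate 1 lay below both libraries at 1 h for all 7.

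In the libraries labelled WT at 3 h the mean of each member was no lower than at 1 h, with the exception of *ONECUT1*. *PDX1* was at 49.1 and 66.4 CPM, *NKX6-1* at 118 and 119 CPM, *SOX9* at 80.1 and 82.4 CPM, and *GATA6* at 51.7 and 43.4 CPM. *MNX1* was at 72.9 and 65.1 CPM and *GATA4* at 42.9 and 45.5 CPM. No member was called by limma between 1 and 3 h in WT, where 0.110% of genes were called lower and 0.485% higher. *ONECUT1*, at 8.50 and 8.91 CPM, was the lone member at an unadjusted *p* under 0.05 (log2 change -0.60, limma adjusted *p* = 0.22). It was called by DESeq2, and edgeR called none. In the same libraries *ALKBH5* was lower at 3 h than at 1 h by -1.65 on the log2 scale (SE 0.16, limma adjusted *p* = 9.9e-05).

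At 3 h all 7 members tested were lower in A5-KO than in the libraries labelled WT. The WT mean was 4.97 times the A5-KO mean for *SOX9*, 4.76 times for *PDX1*, 4.37 times for *GATA6*, 4.25 times for *NKX6-1*, 3.18 times for *GATA4*, 2.202 times for *MNX1* and 1.69 times for *ONECUT1*. On the log2 scale the differences ran from -0.66 (SE 0.18, limma adjusted *p* = 0.011) for *ONECUT1* to -2.25 (SE 0.27, limma adjusted *p* = 3e-05) for *SOX9*. A call of lower was common at this time, at 17.7% of 13620 genes against 1.15% called higher. The libraries of the genotypes did not overlap for any of the 7, as was so for 46% of genes in this direction. *ONECUT1* had been called at 0 and 1 h as well, and none of the other 6 had. No value can be had for 3 h without the libraries labelled WT that lay between the genotypes, since they are the only ones.

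**Figure D4:**
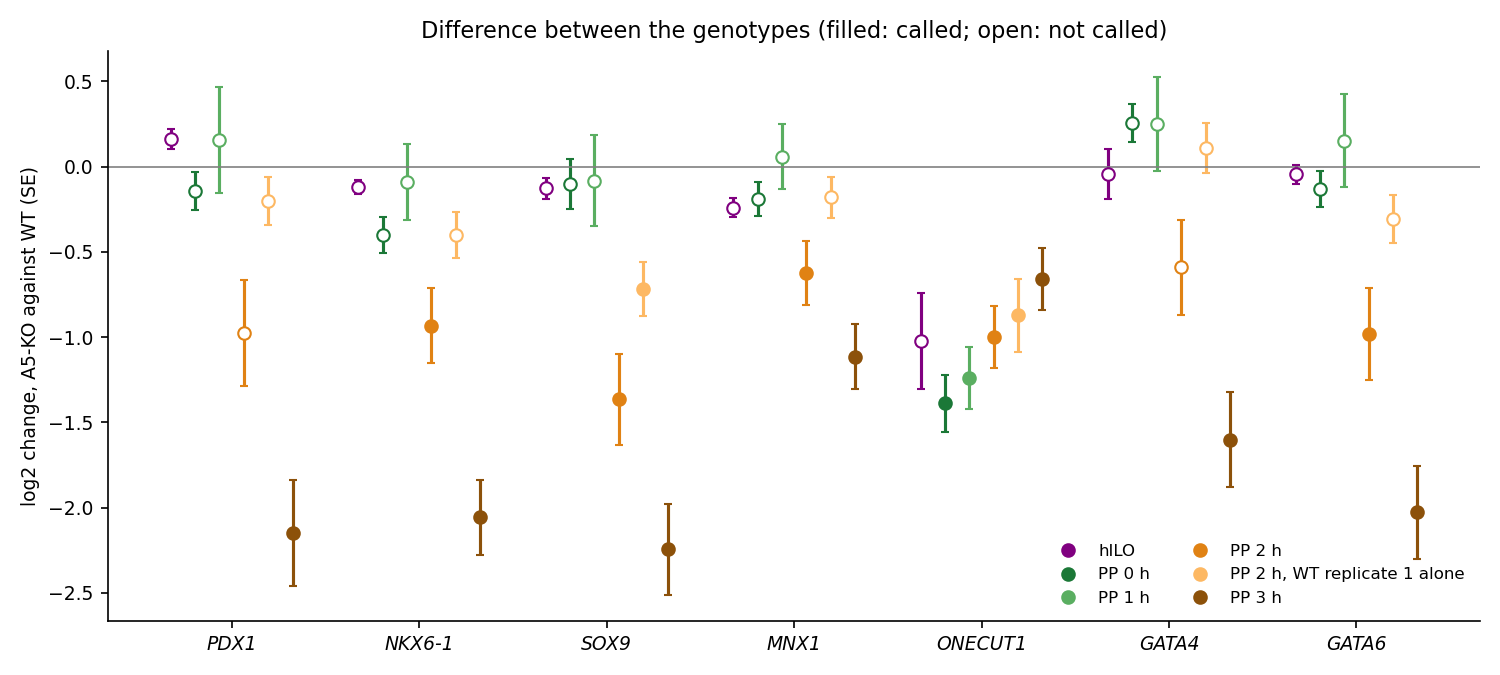
Log2 difference between A5-KO and WT for 7 factors in hILOs and in PPs at 0, 1, 2 and 3 h of Act D, with SE bars from limma (2 libraries against 2; for "WT replicate 1 alone", 1 against 2). Filled points were called and open points were not. ONECUT1 is called lower in every PP comparison. Of the other 6, 4 are called at 2 h (not PDX1 and GATA4) and all at 3 h, where the values are between -1.11 and -2.25; at 2 h with WT replicate 1 alone, SOX9 stays called at -0.72 and ONECUT1 at -0.87, and the others lie between -0.40 and 0.11.

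At 2 h the count of calls depended on single libraries and on the filter. Shares over all genes are given for both WT libraries and for WT replicate 1 alone. The other counts stand without them and show only how steady the calls were. With both WT libraries 5 members were called lower in A5-KO, beside 4.24% of genes called lower and 2.66% higher: *SOX9* (log2 difference -1.37), *ONECUT1* (-0.999), *GATA6* (-0.98), *NKX6-1* (-0.93) and *MNX1* (-0.62). *PDX1* missed the threshold at -0.98 (limma adjusted *p* = 0.050) and *GATA4*, whose libraries overlapped, at -0.59. Leaving out 1 of the 4 libraries at 2 h gave 7 calls without WT replicate 1, 2 without WT replicate 2, 2 without A5-KO replicate 1 and 0 without A5-KO replicate 2, and without the filter on low values 1 member was called. Without the 3 libraries between the genotypes, so with WT replicate 1 alone, 2 members were called. The spread of this lone WT library is assumed to be that of the other groups, here and in the change from 1 to 2 h below. They were *SOX9* at -0.72 (SE 0.16, limma adjusted *p* = 0.0087) and *ONECUT1* at -0.87 (SE 0.21, limma adjusted *p* = 0.020), beside 3.73% of 13633 genes called in either direction. *PDX1* was then at -0.20, *NKX6-1* at -0.40, *GATA6* at -0.31, *MNX1* at -0.18 and *GATA4* at 0.11.

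The change from 1 to 3 h differed between the genotypes for 6 of the 7 members by limma's interaction test, beside 17.7% of genes called lower and 2.28% higher. The differences of change were -2.30 for *PDX1*, -2.18 for *GATA6*, -2.16 for *SOX9*, -1.97 for *NKX6-1*, -1.85 for *GATA4* and -1.17 for *MNX1*, with limma adjusted *p* of 0.0011 to 0.0072. The 6 calls were lost without the filter on low values, where the differences were the same and their limma adjusted *p* was 0.0796 to 0.191. *ONECUT1* had a value of the other sign, 0.58 (SE 0.26), with a limma adjusted *p* of 0.12, and both edgeR and DESeq2 called it. This test uses the libraries labelled WT at 3 h. The nearest comparison without the 3 libraries between the genotypes is the change from 1 to 2 h with WT replicate 1 alone. There *PDX1*, *NKX6-1*, *GATA4* and *GATA6* were called lower at 2 h in WT, by -0.97, -0.73, -0.86 and -0.67, beside 0.616% of genes called lower and 0.0440% higher. In A5-KO the 6 members other than *ONECUT1* were called lower, by -0.71 to -1.32, beside 8.68% of genes called lower and 0.726% higher. The difference of these changes was not called by limma for any member, with 2 at an unadjusted *p* under 0.05 (*SOX9* at -0.64, SE 0.20, and *GATA6* at -0.46, SE 0.18), beside 0.00734% of genes called in each direction.

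Straight lines through the log2(CPM + 0.1) values at 0, 1, 2 and 3 h gave apparent half-lives, relative to the library as a whole and without the spike-ins. In A5-KO they were 0.765 h for *SOX9*, 0.800 h for *PDX1*, 0.863 h for *GATA6*, 0.952 h for *NKX6-1*, 1.07 h for *GATA4* and 1.64 h for *MNX1*. In WT they were 1.95 h for *SOX9*, 1.97 h for *PDX1*, 2.24 h for *GATA6*, 2.18 h for *NKX6-1*, 3.69 h for *GATA4* and 3.91 h for *MNX1*. *ONECUT1* was the reverse, with a WT half-life of 2.98 h against 12.4 h in A5-KO. The A5-KO value has no clear upper limit, since its slope was -0.080 log2 units per h (SE 0.063). It also rests on low levels, at 4.26 to 7.23 CPM in the A5-KO libraries. A line is a poor summary of the WT values, since the libraries at 2 h disagreed and the means at 3 h were no lower than at 1 h for 6 of the 7 members. The slope difference was called for *GATA4* (-0.66 log2 units per h, SE 0.15, limma adjusted *p* = 0.041), beside 2.61% of genes with a steeper fall in A5-KO and 0.0661% with a shallower one. The other 6 had a limma adjusted *p* of 0.072 to 0.11, and all 7 had an unadjusted *p* under 0.05, 6 with a steeper fall in A5-KO and *ONECUT1* with a shallower one. This count was not stable: leaving out 1 library gave 0 to 6 calls, DESeq2 called 3, and the replicate block and the fit without the filter on low values called none. The shares of all genes called in these fits are not given. When only 0, 1 and 2 h were used and WT replicate 2 at 2 h was left out, the slope differences were between -0.21 (SE 0.23) for *SOX9* and 0.26 (SE 0.16) for *ONECUT1*. None was called by limma and none had an unadjusted *p* under 0.05, beside 0.00731% and 0.358% of genes called.

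The median of the members ran near that of a list of mRNAs known to be short-lived in general, though no test of likeness was made. Both the members and this list were chosen with earlier results of these data known, so their nearness is a description only. *ONECUT1* took another course, with 85.5% and 78.5% of its 0 h mean left at 3 h in A5-KO and 47.5% and 49.8% in WT. The median over the 7 members was 29.3% and 34.2% of the 0 h mean in the WT libraries at 1 h, then 18.95% and 46.5% an hour later, and finally 38.6% and 37.3%. In A5-KO it was 39.6% and 39.4%, then 19.9% and 18.1%, then 12.5% and 10.1%. For 19 short-lived mRNAs such as *MYC* and *JUN*, the medians were 26.6% and 29.3%, 17.6% and 35.8%, and 34.7% and 42.6% in WT, and 31.0% and 27.5%, 18.7% and 17.0%, and 17.1% and 14.3% in A5-KO. At 3 h 18 of these 19 were called lower in A5-KO than in WT, as were 17.7% of all genes. Their median log2 difference was -1.37, beside -2.03 for the 7 members and -0.13 for all genes. The median over all genes stayed between 82.0% and 93.3% in the libraries at 1 to 3 h.

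**Figure D5:**
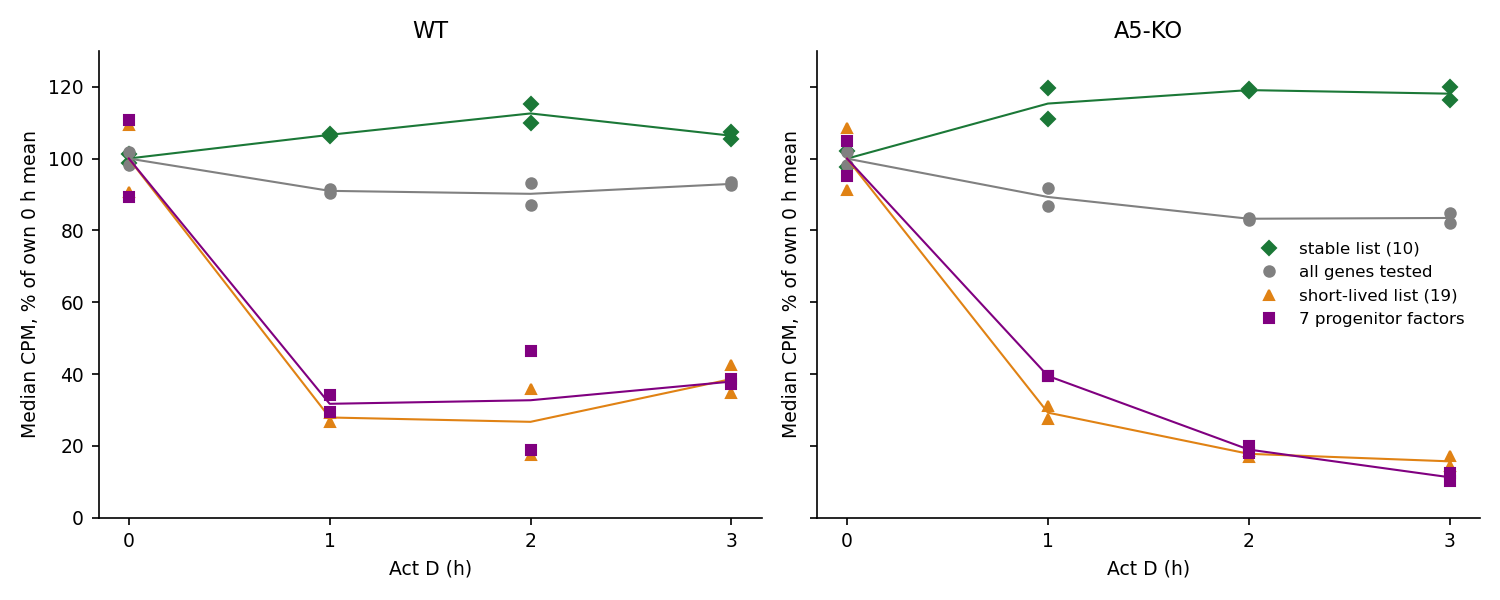
Median CPM as a percentage of each genotype's own 0 h mean, for the 7 factors, 19 short-lived mRNAs, 10 stable mRNAs and all genes tested. Points are libraries and lines join the means of 2. The factors and the lists were chosen with earlier results of these data known. The median of the factors lies near that of the short-lived mRNAs in both genotypes (ONECUT1, not plotted singly, kept 78.5% and 85.5% at 3 h in A5-KO): it falls to 10.1% and 12.5% at 3 h in A5-KO and stays at 37.3% and 38.6% in the libraries labelled WT at 3 h, while the stable mRNAs stay above 100%.

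Other progenitor regulators went the same way at 3 h. Of 19, 14 were called lower in A5-KO than in the libraries labelled WT and none higher, with a median of -0.89. Over all genes 17.7% were called lower and 1.15% higher. Among the lowest were *HES1* (-1.996), a target of Notch signalling and itself on the short-lived list, and *SOX4* (-1.72). Between 1 and 3 h 10 of the 19 were called lower in A5-KO, beside 15.5% of all genes called lower and 0.837% higher. The change differed by genotype for 11, the largest being *FOXA1* at -2.57 and *HES1* at -2.27, beside 17.7% of genes called lower and 2.28% higher. These values rest on the same WT libraries.

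Over the 16 PP libraries the members ran closely together except for *ONECUT1*. The Pearson correlation of each one's centred log2(CPM + 1) with the mean of the other 6 was 0.997 for *NKX6-1*, 0.992 for *GATA6*, 0.989 for *SOX9* and *MNX1*, 0.987 for *PDX1*, 0.954 for *GATA4* and 0.530 for *ONECUT1*. Among 8914 other genes that averaged 10 CPM or more, those most like the mean of the 7 included *SHISA2* (r = 0.995), *BCAR3* and *SOX11* (both 0.9933), and *ADNP2* (0.9925). The libraries share the Act D course and their totals, so these correlations describe that course and carry no test.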

How the data were processed

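RNA-seq of WT and A5-KO hILOs (4 libraries) and PPs under Act D (16 libraries) was used. Groups and replicate numbers came from the sample labels. The labels give hILO media to day 22. Reads were trimmed with fastp and aligned to GRCh38 with HISAT2 (2.1.0). For hILOs the authors deposited TPM from StringTie, summed by gene. For PPs the authors deposited CPM after removing the ERCC spike-ins, which were not used here. The read counter and annotation release are not given in the sources used here. At least 99.9951% of CPM values were whole multiples (within 0.01) of the worth of 1 read, which gave back the reads. Replicates of 1 PP group differed by 4.28 to 37.8 times the counting error (chi-square per degree of freedom), most in WT at 2 h. The study calls the PP libraries biological replicates, without saying whether these were separate differentiations, so *p*-values measure the spread between libraries, which may be technical. The smallest two-sided exact permutation *p* that 2 against 2 allows is 0.33.

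Of the identifiers, 60370 (hILO) and 60369 (PP) were matched to symbols. Genes with a mean of at least 1 were fitted with limma (3.58.1, R 4.3.3; eBayes with trend) on log2(value + 1): hILOs alone, PPs at 0 h alone, and all other PP comparisons in 1 fit of 16 libraries. Slopes used log2(CPM + 0.1). Calls needed a Benjamini-Hochberg adjusted *p* below 0.05 over all genes and, except for interactions and slopes, a change over 1.5-fold. Fold changes on these scales are understated for low genes. Alternatives ran the count tests of edgeR (4.0.16) and of DESeq2 (1.42.0) on reads recovered from CPM. Code was tested on simulated data: of 200 genes changed by 1 on the log2 scale, 196 were recovered at 0 h and 180 in the interaction of 1 to 3 h. All simulated PP libraries had the same fixed spread, which was not taken from these replicates. In the data the spread differed between groups, so these counts check the code and do not give the power here. The members and all lists were chosen with earlier results of these data known. All members are named, plus *ALKBH5*, up to 3 called genes per direction of the other progenitor list, and the 5 genes most like the members. The values of 2 genes that this rule names are not reported here. Sequences came from GENCODE transcripts of GRCh38.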

Additional observations from a re-analysis of the deposited data

Results flagged for a closer look

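For 6 members the change from 1 to 3 h of Act D differed between A5-KO and WT by limma's interaction test: *PDX1* (-2.30), *NKX6-1* (-1.97), *SOX9* (-2.16), *MNX1* (-1.17), *GATA4* (-1.85) and *GATA6* (-2.18), in log2 units and with each A5-KO library at 3 h below each at 1 h. Over all genes, 17.7% were called lower and 2.28% higher in this test. All 6 stayed called when any 1 PP library was left out, and none was called without the filter on low values (limma adjusted *p* = 0.0796 to 0.191). Both WT libraries at 3 h enter each of these values, and both lay between the genotypes on genes that separated them at 0 and 1 h. With WT replicate 1 at 2 h as the only late WT library, the change from 1 to 2 h was called different for no member by limma, with 2 at an unadjusted *p* under 0.05.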

How the results depend on the processing

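Counts of members called are given, of 7 tested. They stand without the share of all genes called, so they show how steady the calls were and not whether the members differed from other genes. No direction of a call was reversed under any alternative. Without the filter on low values, 1 was called at 2 h, 2 in A5-KO from 0 to 1 h, 0 for the genotype difference in the change from 1 to 3 h and 0 for the slope; the cause was not tested. DESeq2 called 1 in WT from 1 to 3 h and 3 slopes (2 lower, 1 higher). With only the libraries compared in the fit, 0 were called at 2 h. That fit has fewer libraries and takes its spread from the groups at 2 h, where the WT replicates disagreed most. The part of each was not tested. The slope was called for 6 with 0 and 3 h only, for 0 with 0 and 1 h only, and for 6 with 1, 2 and 3 h only. Leaving out each library in turn gave 0 to 7 calls at 2 h (2 without WT replicate 2, 2 without A5-KO replicate 1 and 0 without A5-KO replicate 2) and 0 to 6 for the slope (6 without WT 0 h replicate 1 or WT 2 h replicate 1, and 0 without WT 0 h replicate 2, WT 2 h replicate 2, or any 1 library at 1 or 3 h or of A5-KO). Of the alternatives added after the data were seen, leaving out both WT libraries at 2 h gave 6 slopes, and leaving out the 3 WT libraries between the genotypes gave 2 at 2 h and 0 slopes, also 0 with 0, 1 and 2 h. Scaling to 10 stable mRNAs, median-of-ratios scaling and the pseudocount left every count within 1.5 times. The deviations of same-numbered replicates had r from -0.11 to 0.29 over genes between genotypes, with the 0.29 at 0 h. At 0 h replicate 1 was the higher in both genotypes for every tested member but *MNX1*. Between Act D times of 1 genotype r was -0.39 to 0.29 (a check added after the data were seen). The sign was not the same throughout, so the numbers are not taken as pairs. The replicate block gave 0 slopes, as did an added block within each genotype, and neither changed another count by over 1.5 times.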
